A study of Homo sapiens with 6 samples.

Results

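The 4 genes described here, SERPINF1, THBS1, ADAMTS1 and ADAMTS8, encode secreted proteins that inhibit the growth of blood vessels. They are 4 of the 740 endogenous genes of a cancer progression panel read with the NanoString nCounter assay, which counts fluorescent barcodes hybridized to RNA without amplification. All 4 passed the filter on low values that 454 genes passed, SERPINF1 through the NRAS Q61K line alone. The genes were chosen by what they encode and by their measured difference between the lines, so that difference is a description here and carries no test. The series compared A375, a human melanoma line with BRAF V600E and wild-type NRAS, with an isogenic line of the same background that has BRAF V600E and NRAS Q61K, a change that keeps this RAS protein active. Neither line was treated. Both lines carry a luciferase reporter, per their catalogue names, and were grown in the same serum-containing medium without vessels or other cells. Each line gave 3 samples of total RNA. The labels do not say whether these were separate cultures or whether the mutant line is 1 clone, so the p-values below measure only the spread between these samples.

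Tumour vessels form when growth factors such as VEGF outweigh secreted inhibitors. THBS1 encodes thrombospondin 1, a large matricellular glycoprotein that blocks endothelial cells through CD36 and CD47, binds integrins and proteoglycans, and can activate latent TGF-beta. SERPINF1 encodes pigment epithelium-derived factor (PEDF), a member of the serpin family that does not inhibit proteases and that melanocytes secrete. ADAMTS1 and ADAMTS8 encode zinc metalloproteases with thrombospondin type 1 repeats, also known as METH1 and METH2, which bind the matrix and inhibit endothelial growth. In other cell types oncogenic RAS is known to lower thrombospondin 1, and MYC, ID1 and JUN are reported to repress its gene.

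Values are normalized counts, in which a background was subtracted and each sample was multiplied by 1 factor. The totals before that factor ran from 1158504 to 1264638 counts per sample. The detection floor was 129.7 counts, the mean of 8 negative control probes plus 2 SD. It was applied to a gene's mean normalized count over all 6 samples. These probes are unscaled, and on the scale of the deposited genes the same floor is 117 in the wild-type and 147 in the mutant line. Across the 454 tested genes the median coefficient of variation was 3.48% in wild-type and 3.64% in mutant samples. The factors ran from 0.898 to 0.903 for the wild-type line and from 1.11 to 1.16 for the mutant line, and the log2 differences of tested genes, mutant minus wild type, had a median of 0.32 as deposited and -0.0079 without the factors. NRAS and BRAF transcripts were not analysed here. All 4 melanocytic markers on the panel were above the floor. So were 5 of 9 endothelial markers, 1 of 3 leukocyte markers (ITGB2) and 4 of 10 fibroblast and mural markers (PDGFRB, LUM, FAP and DCN), while the leukocyte gene PTPRC and the fibroblast collagen gene COL1A2 stood at the lowest value of every sample.

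SERPINF1 was near background in wild-type cells and abundant in NRAS Q61K cells. The wild-type samples held 10.8, 7.97 and 1 normalized counts, the last of which is the table's minimum. The mutant samples held 3087, 3039 and 3010. Every wild-type sample was thus far below the floor and every mutant sample far above it, with no overlap. The means were 6.58 ± 5.03 and 3045 ± 38.9 (SD, n = 3 each), and against the floor the gene was at least 23.5-fold higher in the mutant line, or 26.1-fold with the floor on the wild-type scale. Its mutant samples differed by a coefficient of variation of 1.28%, where the median was 2.12% over 37 tested genes within 1.2-fold of its level. SERPINF1 had the highest fitted difference of the 454 tested genes, although a fitted value for a gene near background depends on the pseudocount. Fibroblasts also secrete PEDF. Over the 10 fibroblast and mural markers on the panel, of which 4 were above the floor, the summed level ran from 616 to 646 in wild-type and from 1601 to 1843 in mutant samples, with 18.98 counts of COL1A1 and 21.9 of COL3A1 in the mutant line, both below the floor. Most of the difference in that sum lay in the receptor gene PDGFRB, with 91.4 ± 9.47 and 686 ± 23.7 counts, and in LUM, encoding the proteoglycan lumican, with 93.8 ± 12.4 and 463 ± 13.1. Both lines were, as stated above, grown without other cells. The marker levels are given as a description, and the purity of the cultures was not tested.

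**Figure D1:**
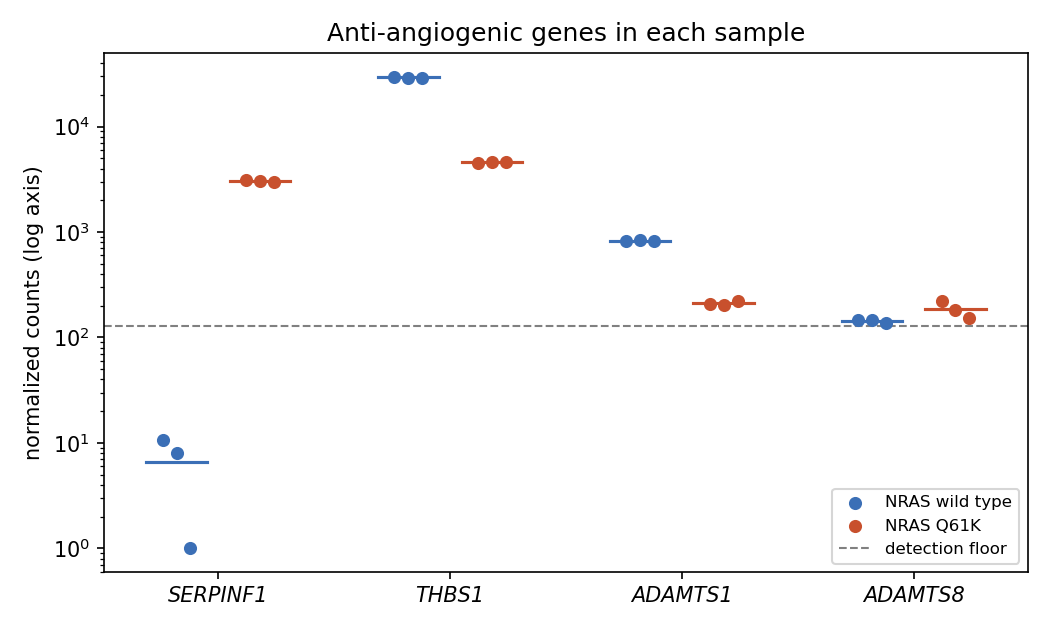
Normalized counts of the 4 genes in each of the 6 samples on a log axis, with points for samples, short lines for means of 3 and a dashed line at the detection floor of 129.7. SERPINF1 sits below the floor in wild-type and near 3045 in mutant samples, THBS1 and ADAMTS1 are lower in the mutant line, and ADAMTS8 lies just above the floor in both.

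THBS1 was the reverse case, a gene that both lines expressed well above the floor. The wild-type samples held 29845, 28987 and 29105 normalized counts and the mutant samples 4563, 4646 and 4581. The lowest wild-type sample was far above the highest mutant sample. The means of 29313 ± 465 and 4596 ± 43.6 gave a log2 difference of -2.67 with a standard error of 0.028, or 6.38-fold lower in the mutant line. This was the 7th lowest difference of the 454. Replicates were tight in both lines, with coefficients of variation of 1.59% and 0.949%. The mutant level was still far above the floor, so the gene was lower and not silent. In bulk RNA such as this, fewer cells that express a gene and less RNA per cell cannot be told apart.

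The start of THBS1 is shown because it is the gene on which the regulators described below are reported to act. The 250 bases before the transcription start (RefSeq, GRCh38.p14, chr15:39580829-39581078, plus strand) read as follows, with capitals for the matches to a GC box or a CCAAT box.
THBS1 upstream: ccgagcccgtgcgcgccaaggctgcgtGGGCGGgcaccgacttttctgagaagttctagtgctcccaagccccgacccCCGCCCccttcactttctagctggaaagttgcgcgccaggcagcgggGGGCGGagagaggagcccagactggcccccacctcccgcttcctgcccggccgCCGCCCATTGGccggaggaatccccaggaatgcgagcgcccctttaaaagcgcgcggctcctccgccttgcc
The window was 69.6% G or C. The GC box (GGGCGG) occurred 4 times over both strands, and 42.6% of 35116 promoter windows of the same length hold it. The CCAAT box occurred once, on the opposite strand 62 to 66 bases before the start and next to a GC box without overlap, and 32.0% of windows hold it. On neither strand of this window was there an exact match to the E-box that MYC prefers (CACGTG) or the AP-1 site that JUN binds (TGANTCA). The TATA box (TATAAA) had no exact match either. In the same order, these exact forms occur in 6.34%, 6.57% and 10.7% of windows. Looser forms of the sites were not searched. RefSeq windows of the other 3 genes were not used here.

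ADAMTS1 was lower in NRAS Q61K cells. The wild-type samples held 815, 836 and 814 normalized counts and the mutant samples 208, 203 and 220. The lines did not overlap, and the mutant samples stayed above the floor. The means of 822 ± 12.3 and 210.2 ± 8.81 gave a log2 difference of -1.96 with a standard error of 0.039, or 3.90-fold lower. It was the 10th lowest difference of the 454. In the mutant line its coefficient of variation was 4.19%, against a median of 10.8% over 48 tested genes within 1.2-fold of that level.

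ADAMTS8, the closest relative of ADAMTS1 among the 4 genes, did not follow it. The wild-type samples held 146, 148 and 137 normalized counts and the mutant samples 224, 182 and 153. The lowest mutant sample was just above the highest wild-type sample, so the lines did not overlap, but the mutant samples were spread widely. The means were 144 ± 5.62 and 186 ± 35.7, with a log2 difference of 0.35 and a standard error of 0.14. That difference was 0.033 from the median of all tested genes. Its coefficient of variation in the mutant line was 19.2%, and 7 of 42 tested genes within 1.2-fold of its level had a higher one. Without mutant replicate 1, the highest sample, the log2 difference was 0.21, and without mutant replicate 3, the lowest, it was 0.49.

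The ADAMTS8 difference was not present before the samples were scaled. Without the factors the wild-type samples held 163, 163.8 and 153 counts and the mutant samples 192.8, 163.8 and 136.5. The lines then overlapped fully, with means of 159.95 ± 6.03 and 164 ± 28.2 and a log2 difference of 0.026. Of the control probes, which the table gives unscaled, the brightest negative control, NEG_H, read between 112 and 144 counts in the 6 samples. The positive control POS_E, a spiked RNA of similar count, read between 108 and 161 with a coefficient of variation of 13.6% over all samples. ADAMTS8 was thus read at a level where a probe without a target gave nearly as many counts, and before scaling the lines differed by less than the spread of the mutant samples.

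**Figure D2:**
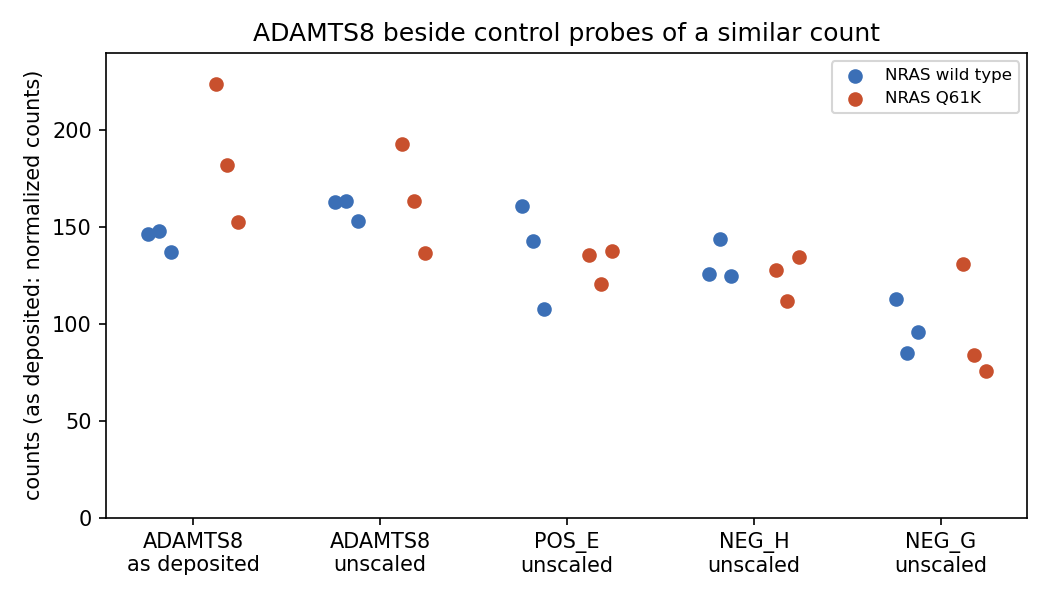
Counts of ADAMTS8 in each sample as deposited and before scaling, beside a positive control probe and the 2 brightest negative control probes, which are unscaled. Before scaling the 2 lines overlap at means of 159.95 and 164, and NEG_H reaches 144.

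All 4 genes had samples that did not overlap between the lines as deposited, as had 84.1% of the tested genes, since most of the panel differed. SERPINF1, THBS1 and ADAMTS1 differed by more than 2-fold, as did 23.1% of tested genes. These shares are the background, and nothing is read from the members' own counts, which the choice of the genes fixed. Without the factors 77.3% of tested genes did not overlap, and ADAMTS8 was not among them.

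**Figure D3:**
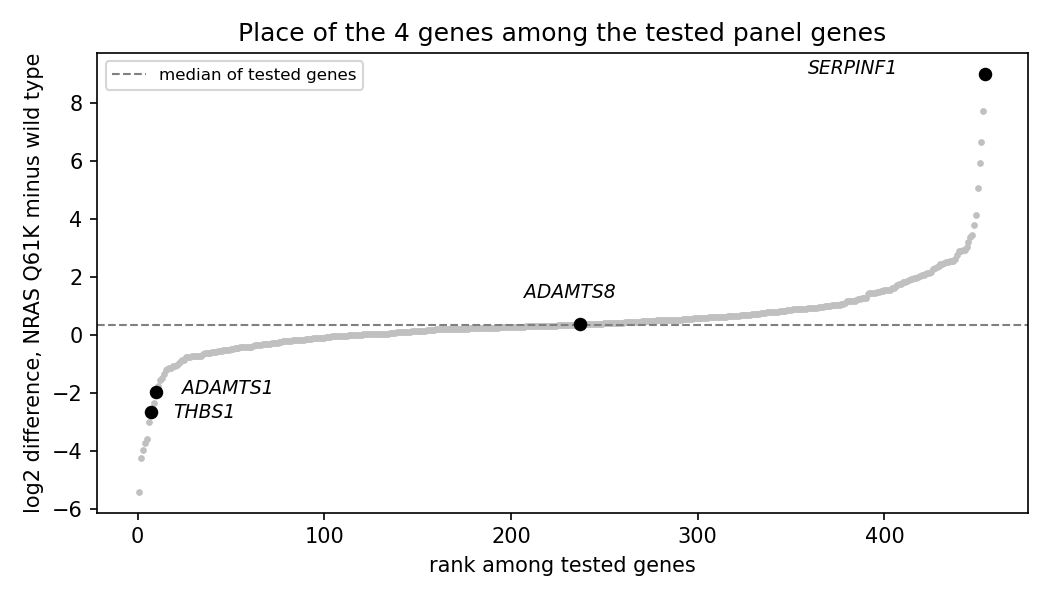
Log2 difference of each of the 454 tested genes by rank, mutant minus wild type, with the 4 genes in black and the median of 0.32 as a dashed line. SERPINF1 lies at the top, THBS1 and ADAMTS1 are the 7th and 10th from the bottom, and ADAMTS8 lies on the median; fitted values of genes near background, SERPINF1 included, depend on the pseudocount.

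The scaling between samples moved the size of the differences and, for ADAMTS8, the sign. The log2 difference of THBS1 was -3.00 without factors, -2.99 with factors from the positive controls, -3.12 with equal sample medians and -2.91 after quantile normalization. For ADAMTS1 the same settings gave -2.29, -2.28, -2.41 and -2.46. ADAMTS8 was at 0.026 and 0.038 in the first pair and at -0.096 and -0.15 in the second. SERPINF1 thus stayed higher and THBS1 and ADAMTS1 lower in the mutant line, without overlap, under all 5 scalings. The shifts between scalings were small beside the differences of SERPINF1, THBS1 and ADAMTS1, so their direction could hardly have changed. ADAMTS8 had no settled direction.

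**Figure D4:**
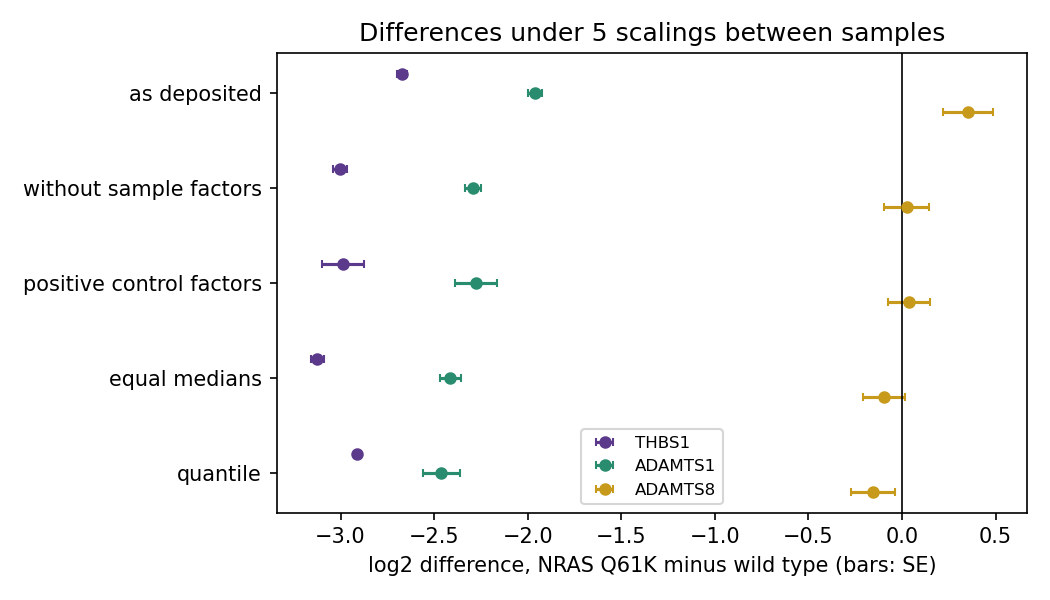
Log2 difference, mutant minus wild type, of THBS1, ADAMTS1 and ADAMTS8 under 5 scalings between samples, with bars for the standard error of the fit. THBS1 stays between -3.12 and -2.67 and ADAMTS1 between -2.46 and -1.96, while ADAMTS8 moves from 0.35 to -0.15; SERPINF1 is left out because its wild-type level is below the floor.

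The genes around these 4 were taken from 7 lists of angiogenesis-related genes and tested with limma over all 454 genes. The panel holds 102 such genes, of which 68 were tested. In the mutant line 45 of these were higher and 13 lower. These shares, 66.2% and 19.1%, lay near the 62.1% and 20.9% of all tested genes that were higher and lower. The median log2 difference was 0.30 beside 0.32 for the panel. Across the 5 scalings, 23 of the 45 higher genes and all 13 lower genes kept their call, the latter nearly by construction, since the other scalings lowered almost every difference.

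**Figure D5:**
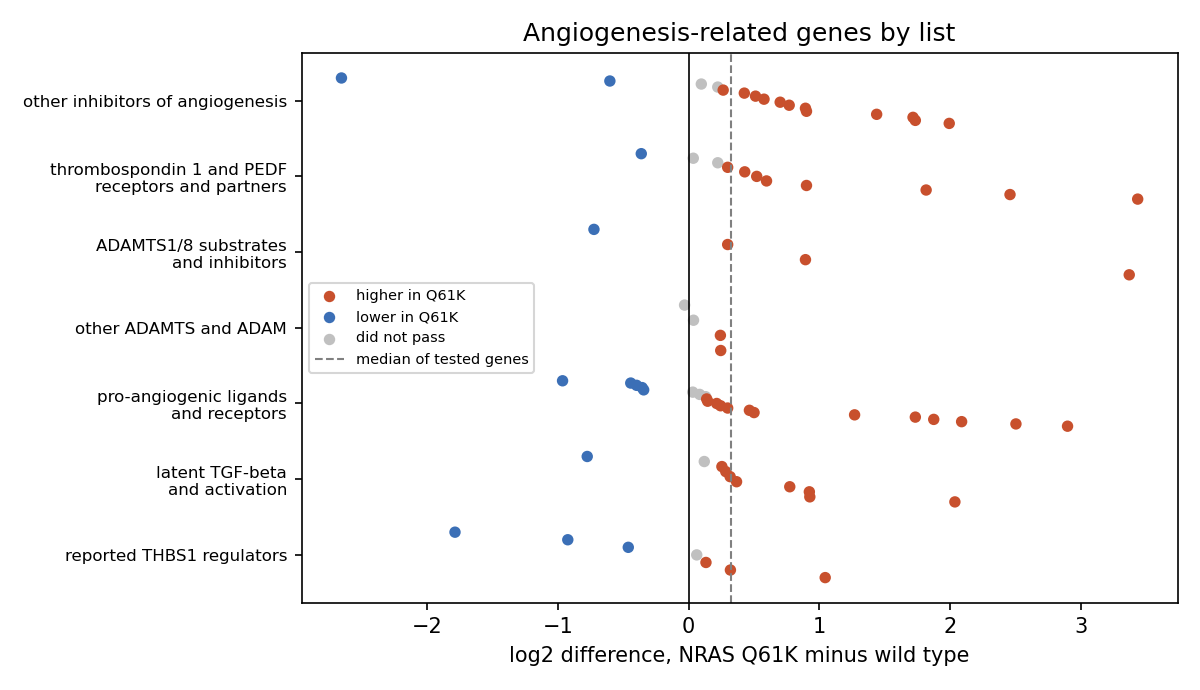
Log2 differences of the tested genes of 7 angiogenesis-related lists, mutant minus wild type, coloured by the limma call at an adjusted p under 0.05, with the panel median of 0.32 dashed. Of 16 other inhibitors 12 were higher and 2 lower. The pro-angiogenic list holds 13 higher and 5 lower genes of 21. Of all tested genes 62.1% were higher and 20.9% lower. Some genes stand in more than 1 list.

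Of 16 other secreted or matrix-derived inhibitors tested, 12 were higher and ANGPTL4 and FST were lower. That is 75% and 12.5%, beside 62.1% and 20.9% of all tested genes. Their median log2 difference was 0.64 beside 0.32 for the panel, and with equal medians 8 were higher and 4 lower. SPARC, a matricellular protein that binds VEGF and collagen, was 3.29-fold higher at 35709 ± 372 against 10869 ± 271 (limma adjusted p = 6.70e-08). ANGPTL4, a secreted regulator of lipoprotein lipase with a context-dependent effect on vessels, was 6.30-fold lower. Chosen after their values were seen, COL4A1, COL4A2 and COL18A1, whose collagens release the anti-angiogenic fragments arresten, canstatin and endostatin, were 3.98-fold, 2.71-fold and 1.70-fold higher, and all 3 kept that call under the 5 scalings. The list also holds PROK2, which promotes vessel growth, and FST and EPHB4, which are not inhibitors in a strict sense. Without these 3 genes 11 were higher and 1 was lower of 13, 84.6% and 7.69% beside 62.1% and 20.9% of all tested genes. With equal medians 8 of the 13 were higher and 2 lower. The 3 genes were set apart with earlier results known, and FST among them was a lower gene. FLT1, which also stands in the list that promotes vessel growth, remains among the 13.

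The thrombospondins on the panel went different ways. THBS2, the closest relative of THBS1 and also an inhibitor, held 8.98, 5.27 and 1 normalized counts in wild-type and 174, 145 and 155 in mutant samples. Its mean over all samples was below the floor, so it was not tested. Against the floor its mutant mean of 158 ± 14.6 was at least 1.22-fold higher. THBS4, a family member without the type 1 repeats, held 212 ± 16.1 and 254 ± 3.78 and was 1.2-fold higher as deposited (limma adjusted p = 0.00588), but its difference was negative under the other 4 scalings. THBS2 and THBS4 were named here after their values were seen.

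Receptors and binding partners of thrombospondin 1 and PEDF were present in part. CD36, the receptor for the anti-angiogenic repeats of thrombospondin 1, was far below the floor in both lines at 6.29 ± 7.05 and 19.9 ± 8.78 counts. Of 11 tested partners 8 were higher and 1 was lower, 72.7% and 9.09% beside 62.1% and 20.9% of the panel, or 5 and 3 with equal medians. FN1, encoding fibronectin, a matrix ligand of thrombospondin 1, was 10.8-fold higher at 6186 ± 168 against 572 ± 38.3 (limma adjusted p = 4.38e-08). ITGA6, a laminin receptor subunit that also binds thrombospondin 1, was 3.52-fold higher at 13161 ± 186 against 3736 ± 47.1. Chosen after their values were seen, ITGB3, the subunit that pairs with alpha-V to bind the RGD site, was 5.49-fold higher, ITGA3, another subunit that binds thrombospondin 1, was 1.51-fold higher, and ITGA2, a collagen receptor subunit, was 1.29-fold lower.

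Genes tied to the ADAMTS proteases were few. Of 4 tested substrates and inhibitors, 3 were higher and TFPI2 was lower, or 2 and 2 with equal medians. That is 75% and 25% as deposited, beside 62.1% and 20.9% of all tested genes. TFPI2, a protease inhibitor of the matrix that ADAMTS1 cleaves, was 1.65-fold lower at 730.4 ± 48.8 against 1205 ± 14.4 (limma adjusted p = 2.31e-05). FBLN1, encoding fibulin 1, a cofactor of ADAMTS1, went from 27.8 ± 5.63 to 293 ± 5.23 counts, at least 2.26-fold higher. TIMP2, a metalloprotease inhibitor, was 1.86-fold higher, and SDC4, a transmembrane proteoglycan, was 1.23-fold higher as deposited with a negative difference under the other 4 scalings. VCAN, encoding the proteoglycan versican, a main substrate, stayed below the floor at 26.95 ± 8.0 and 57.4 ± 5.86 counts. Beside the difference of ADAMTS1, the third ADAMTS gene on the panel, ADAMTS12, held 1329.5 ± 29.4 and 1303 ± 75.5 counts and did not pass (limma adjusted p = 0.580), and it was lower under the other 4 scalings. Among the related ADAM sheddases, ADAM9 did not pass as deposited and passed as lower under the other 4 scalings, and ADAM15 and ADAM17 were 1.19-fold and 1.18-fold higher as deposited, with negative differences under the other 4 scalings.

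On the side that promotes vessel growth, the shares of called genes lay near those of the panel. Of 21 tested genes 13 were higher and 5 lower, 61.9% and 23.8% beside 62.1% and 20.9%, or 6 and 11 with equal medians. CXCL8, whose product interleukin 8 draws endothelial cells and neutrophils, had 427 ± 19.4 and 1818 ± 74.0 counts, 4.25-fold higher in mutant cells, and NRP2, a co-receptor of VEGF-C, was 2.41-fold higher (limma adjusted p = 1.52e-07 and 1.44e-07). The 5 lower genes, chosen after their values were seen, included 4 ligands. VEGFA, the main endothelial growth factor, was 1.95-fold lower at 1063 ± 4.30 against 2075 ± 67.2, and VEGFC, FGF2 and PDGFA were 1.36-fold, 1.32-fold and 1.28-fold lower. The fifth was the Eph receptor gene EPHA2, at 1.27-fold lower. All 5 were lower under all 5 scalings, nearly by construction, since the other scalings lowered almost every difference. Transcripts of the endothelial receptors KDR and FLT1 were at least 1.76-fold and 2.85-fold higher, and over the 9 endothelial markers on the panel, of which 5 were above the floor, the summed level ran from 888 to 973 in wild-type and from 1445 to 1686 in mutant samples.

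Thrombospondin 1 activates latent TGF-beta, and the median log2 difference of 10 tested genes of that system, 0.34, lay near the panel's 0.32. Of these, 8 were higher and TGFB2 was lower, 80% and 10% beside 62.1% and 20.9% of the panel, or 4 and 5 with equal medians. TGFBI, a TGF-beta target that encodes a matrix protein, had 4032 ± 93.0 and 16541 ± 52.8 counts, 4.10-fold higher in mutant cells, and the ligand gene TGFB1 was 1.90-fold higher at 2908 ± 44.0 against 1529 ± 3.28 (limma adjusted p = 4.38e-08 and 4.01e-07). TGFB2 was at least 1.42-fold lower, or 1.26-fold with the floor on the mutant scale, and LTBP4, encoding a latent TGF-beta binding protein, did not pass as deposited and was lower with equal medians.

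Of the genes reported to regulate THBS1 transcription, 7 were tested, with 3 higher and 3 lower. That is 42.9% each, beside 62.1% and 20.9% of all tested genes. With equal medians 1 was higher and 6 were lower. The 3 reported repressors on the panel were lower, as was THBS1. Any part of these genes in the THBS1 difference was not tested. JUN, a subunit of the AP-1 factor, was 3.45-fold lower at 319 ± 26.5 against 1101 ± 34.1 (limma adjusted p = 1.05e-06). Chosen after their values were seen, MYC was 1.90-fold lower at 409.7 ± 57.2 against 773 ± 18.7 and ID1, an inhibitor of helix-loop-helix factors known to repress this gene in mouse cells, 1.38-fold lower at 5241 ± 97.2 against 7215 ± 135. JUN, MYC and ID1 kept their calls under all 5 scalings, nearly by construction, since the other scalings lowered almost every difference.

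The genes whose profile over the 6 samples lay nearest to each member were found by the Euclidean distance between centred log2 values, and they describe likeness in these samples only. Nearest to THBS1 were ANGPTL4 at a distance of 0.113, PTX3, encoding a soluble pattern recognition protein, at 0.423, and AREG, encoding amphiregulin, at 0.443. Their levels were 6.30-fold, 5.12-fold and at least 6.28-fold lower in the mutant line, the last 5.55-fold with the floor on the mutant scale. Nearest to ADAMTS1 were JUN at 0.263, the glucose transporter gene SLC2A1 at 0.521 and PTX3 at 0.553, and SLC2A1 was 2.96-fold lower. Nearest to SERPINF1, at distances of 3.31 to 4.31 set mostly by wild-type values near background, were BGN, encoding the proteoglycan biglycan, ID4, a relative of ID1, and APOE, encoding an apolipoprotein. In mutant cells these held 556 ± 21.8, 327 ± 11.7 and 1000.3 ± 35.5 counts, and all 3 were below the floor in wild-type cells. Nearest to ADAMTS8 were TBXA2R, a thromboxane receptor gene, at 0.103, ISLR, encoding a leucine-rich repeat protein, at 0.157 and AP1M2, an adaptor complex subunit gene, at 0.178. TBXA2R and ISLR did not pass, but both did with a trended variance and without mutant replicate 3, at log2 differences of 0.44 and 0.51, and TBXA2R also did without mutant replicate 1, at 0.17. AP1M2 was 1.24-fold higher as deposited, with a negative difference under the other 4 scalings, and did not pass with no floor or without any 1 of the wild-type samples, at 0.28 to 0.34.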

How the data were processed

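Gene expression was read in 3 samples of each of 2 A375 lines with the nCounter PanCancer Progression panel, and samples were grouped by their titles. The deposited values are a normalized signal, 1 per gene and sample. The software used by the authors is not given in the sources used here. From the deposited values, each of the 770 gene rows is a background-subtracted count times 1 factor per sample. After dividing by it and subtracting 1 fitted offset per sample, 100% of values between 1.5 and 400 were whole within 0.03. The factor brings the geometric mean of 30 housekeeping genes to between 728 and 733. The deposited rows do not mark these 30 genes, which were named from general knowledge of the panel. The remaining gene rows are called endogenous here. Control rows are unscaled. Raw counts are known only up to a constant per sample.

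For endogenous genes with a mean above the floor, limma 3.58.1 (R 4.3.3) was run on log2(value + 1), mutant minus wild type, with Benjamini-Hochberg adjustment over 454 genes and a threshold of 0.05. The fit code was run on simulated data with even noise, upward changes only and no shift between the lines. That run could therefore not bear on counts near the floor or on the scaling between samples. Fold changes are on this log2 scale, which understates changes of low genes, and a bound against the floor replaces the fold of a gene that 1 line did not express above it. The alternatives were 4 other scalings, other pseudocounts and floors, a trended variance, a replicate block and leaving out each sample. A floor carried to each line's scale by its mean factor was added after seeing the data. All 770 symbols matched GRCh38.p14 RefSeq names, 15 through an older symbol.

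The 4 genes, the lists and the naming rule were chosen with earlier results of these data known. The rule named the 2 tested genes of each list with the smallest adjusted p, all tested genes of lists with at most 5, and the 3 nearest profiles of each member. A gene that this rule named is not reported here. The melanocytic, endothelial, leukocyte, and fibroblast and mural marker lists had 4, 9, 3 and 10 genes on the panel, of which 4, 5, 1 and 4 were tested.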

Additional observations from a re-analysis of the deposited data

How the results depend on the processing

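The scaling between samples mattered most. Further settings were a trended variance, pseudocounts of 0 or 10, no floor and a floor of 259. In these, the counts of higher and lower genes stayed within 1.5 times, for the panel and for all angiogenesis-related lists together. With pseudocounts of 0 or 10 the differences of THBS1, ADAMTS1 and ADAMTS8 moved by less than the replicate SD. A trended variance cannot move a difference, and the SERPINF1 bound uses neither setting, so neither tests it. Leaving out each sample in turn gave 258 to 284 higher and 91 to 97 lower panel genes. Of the angiogenesis-related genes 41 to 46 were higher and 13 lower. The log2 differences were -2.68 to -2.66 for THBS1, -2.00 to -1.94 for ADAMTS1 and 0.21 to 0.49 for ADAMTS8. The log2 bound for SERPINF1 was 4.54 to 4.56, but it uses only the mutant samples and the floor. Leaving out a wild-type sample could not move that bound. With a replicate block 299 panel genes were higher and 93 lower, and the 45 and 13 related genes stood at the same counts, and ITGB2, TBXA2R and ISLR passed as higher. Same-numbered samples deviated from their line's means with correlations of 0.216, 0.0528 and 0.0663 over 454 genes. The first of these was the highest between any samples of the 2 lines. Wild-type replicate 3 correlated best with mutant replicate 2, at 0.0914. These values do not settle whether the numbers mark pairs, and the main fit left the samples unpaired.

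Higher and lower panel genes numbered 175 and 160 without sample factors, 150 and 206 with equal medians, 153 and 205 after quantile normalization and 158 and 139 with positive control factors. Higher and lower angiogenesis-related genes numbered 27 and 23, 23 and 34, 25 and 34, and 24 and 18 in the same order. The log2 bound of SERPINF1, 4.55 as deposited, was 4.38, 4.35, 4.35 and 4.39, THBS1 was at -3.00, -3.12, -2.91 and -2.99, ADAMTS1 at -2.29, -2.41, -2.46 and -2.28, and ADAMTS8 at 0.026, -0.096, -0.15 and 0.038. Each of these scalings lowers nearly every log2 difference by construction, and what sets the housekeeping genes apart between the lines was not tested.

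Genes near the panel median therefore turned negative. Without sample factors the log2 differences were -0.030 for SDC4, -0.29 for ADAM9, -0.083 for ADAM15, -0.086 for ADAM17, -0.019 for AP1M2, -0.23 for PROK2, -0.27 for RHOA, -0.20 for ROCK1, -0.0094 for ROCK2 and -0.063 for THBS4. With positive control factors they were -0.018 for SDC4, -0.28 for ADAM9, -0.071 for ADAM15, -0.073 for ADAM17, -0.0062 for AP1M2, -0.25 for RHOA, -0.18 for ROCK1 and -0.051 for THBS4. With equal medians they were -0.15 for SDC4, -0.41 for ADAM9, -0.21 for ADAM15, -0.21 for ADAM17, -0.050 for PECAM1, -0.25 for ITGB2, -0.052 for FAP, -0.14 for AP1M2, -0.35 for PROK2, -0.025 for EPHB4, -0.39 for RHOA, -0.32 for ROCK1, -0.13 for ROCK2, -0.33 for LTBP4 and -0.19 for THBS4. After quantile normalization they were -0.087 for SDC4, -0.40 for ADAM9, -0.15 for ADAM15, -0.15 for ADAM17, -0.088 for PECAM1, -0.29 for CD34, -0.27 for FAP, -0.15 for AP1M2, -0.43 for PROK2, -0.040 for EPHB4, -0.29 for RHOA, -0.26 for ROCK1, -0.092 for ROCK2, -0.34 for LTBP4 and -0.21 for THBS4. With no floor 19 in place of 12 other inhibitors were higher, 5 in place of 3 ADAMTS substrates and inhibitors were higher and 2 in place of 1 lower, and higher endothelial, leukocyte, and fibroblast and mural markers numbered 6, 1 and 5 in place of 3, 0 and 3. With a floor of 259, 1 endothelial marker was higher, none was lower, and TGFB2 was left out. With the floor on each line's scale, 452 genes were tested, 450 of them among the 454. Of these 278 were higher and 97 lower, as were 44 and 13 related genes, and the SERPINF1 bound was 4.71. Without 1 sample, PECAM1 no longer passed (wild-type replicate 2, 0.34), and LTBP4 (mutant replicate 1, 0.18), CD34 (mutant replicate 2, 0.30) and DCN (mutant replicate 3, 0.36) passed. ROCK1, higher as deposited, no longer passed without any 1 of the wild-type samples, at 0.13 to 0.14. Counts near the floor limit ADAMTS8 and THBS2, for which a control probe without a target reads at a similar level.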

Other observations

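Marker genes of melanocytic and other cell types were read beside the 4 genes, in cultures grown without other cells. Of the melanocytic markers, ERBB3, a neuregulin receptor gene, was 6.80-fold and CSPG4, a melanoma proteoglycan gene, 3.34-fold higher in NRAS Q61K cells, and MCAM and SOX9 were 1.70-fold and 1.69-fold higher. Of 5 tested endothelial markers KDR, FLT1 and PECAM1 were higher and ROBO4 was 1.55-fold lower. CD34 had 258 ± 21.1 and 294 ± 44.7 counts and did not pass as deposited, but passed as higher without mutant replicate 2 and as lower after quantile normalization. PECAM1 was 1.32-fold higher as deposited and did not pass under the other 4 scalings. Of 4 tested fibroblast and mural markers PDGFRB and LUM were at least 5.29-fold and 3.57-fold higher, FAP was at least 1.15-fold higher as deposited and lower after quantile normalization, and DCN did not pass as deposited, but did without mutant replicate 3, with 216 ± 6.68 and 255 ± 46.5 counts. The leukocyte integrin gene ITGB2 did not pass, with 219 ± 27.96 and 251 ± 21.7 counts, and was called lower with equal medians, and over the 3 leukocyte markers the summed level ran from 276 to 374 in wild-type and from 353 to 435 in mutant samples.

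Of 43 listed genes that were not tested, 3 had a mean above the floor of 129.7 in 1 line. Beside THBS2 these were ITGA9, an integrin subunit gene at the table's minimum of 1 in all wild-type samples and at 174 ± 15.9 counts in mutant cells, at least 1.34-fold higher, and ITGAM, a leukocyte integrin gene with 112 ± 23.0 and 136 ± 23.7 counts, below the floor on the mutant scale of 147. SLIT2, encoding a secreted guidance ligand with effects on vessels, read 131, 132.5 and 124.9 counts in the wild-type line and 5.61, 1.11 and 1.12 in the mutant line, with a wild-type mean below 129.7 and above the floor on that line's scale of 117. These genes were named after their values were seen.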
